A study of Mus musculus with 12 samples.

Results

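Hprt was followed across 4 regions of the adult mouse brain on a 1-colour Arraystar array for long noncoding and messenger RNAs. It is 1 of the 15 genes whose probes the files name, among 60930 non-control probes. The probe, CUST_4_PI419532418, was picked by its name. It carries the accession NM_013556.2, which RefSeq assigns to Hprt, and was printed in 20 copies on every scan. RNA came from the olfactory bulb, the hypothalamus, the hippocampus and the cerebellum of BALB/c mice, all male and aged 10 weeks, with 3 scans a region and 12 in all. All groups share strain, sex, age and handling, so the region is the only labelled difference, and the series text names 3 mice without tying them to arrays. Probes well above background made up 87.9% to 93.2% of a scan, and precision is limited by how few arrays there are. In the hippocampus, the scans of replicates 1 and 3 were nearly the same (SD of their log2 difference 0.0278 over 15216 bright probes), and in the cerebellum likewise (SD 0.0263). Copies on a scan varied more than this, with a log2 SD of at least 0.0779 pooled over the 15 named probes and of 0.0429 to 0.0768 for Hprt itself, so each such pair was averaged and counted as 1 sample. The comparisons rest on 10 arrays, with n = 3 for olfactory bulb and hypothalamus and n = 2 for hippocampus and cerebellum.

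Hprt encodes hypoxanthine-guanine phosphoribosyltransferase, an enzyme of purine salvage. It joins the free bases hypoxanthine and guanine to phosphoribosyl pyrophosphate, which returns them to the nucleotide pool as IMP and GMP and spares the cell from building purines anew. The gene lies on the X chromosome, its loss in people causes Lesch-Nyhan disease, a disorder of uric acid and of the brain, and its transcript is widely used as a reference for RNA measurements in tissue.

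The hypothalamus had the highest Hprt level, 1.53-fold to 1.78-fold above each of the other 3 regions. Levels are given as the log2 of the processed signal relative to the upper quartile (75th percentile) of the same array. In the hypothalamus the 3 arrays stood at 6.76, 6.65 and 6.72, with a mean of 6.71 ± 0.057 (SD, n = 3). In the hippocampus the 2 arrays stood at 6.16 and 6.04 (mean 6.10 ± 0.088, SD, n = 2). In the olfactory bulb they stood at 5.97, 5.87 and 5.995, with a mean of 5.95 ± 0.064 (SD, n = 3). In the cerebellum they stood at 5.97 and 5.79 (mean 5.88 ± 0.12, SD, n = 2). Every hypothalamus array lay above every array of the other regions, whereas the arrays of the olfactory bulb and the cerebellum overlapped, and the hippocampus arrays lay just above both. How many tested probes separate the hypothalamus likewise was not counted.

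The 4 regions differed for Hprt in the F test of limma (adjusted p 0.000615), as they did for 36.1% of the 56573 probes tested. Relative to the cerebellum, the hypothalamus was higher by a log2 difference of 0.83 (SE 0.098, limma adjusted p 0.000457), a pair in which 26.2% of probes differed and 14.7% were higher in the hypothalamus. It exceeded the olfactory bulb by 1.70-fold (limma adjusted p 0.000472), where 23.4% of probes differed and 11% in that direction. It exceeded the hippocampus by 0.61 (SE 0.098, limma adjusted p 0.00374), where 16.9% differed and 11% in that direction. Many probes differed by more than Hprt did. Between hypothalamus and cerebellum 17.9% of tested probes moved further in either direction, between hypothalamus and hippocampus 18%, and between olfactory bulb and hypothalamus 14.6%. In tissue pieces such as these, more cells with a given level of a transcript and more transcript per cell cannot be told apart.

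Among the other 3 regions no pair passed the test. The olfactory bulb minus the hippocampus gave -0.15 (95% interval -0.38 to 0.076, limma adjusted p 0.356), in a pair where 20.3% of probes passed. Olfactory bulb minus cerebellum gave 0.067 (interval -0.16 to 0.30, limma adjusted p 0.699), where 21.6% passed. The hippocampus minus the cerebellum gave 0.22 (interval -0.030 to 0.47, limma adjusted p 0.212), where 23.3% passed. All 3 intervals include 0 and reach as far as 0.47, so neither an order of these regions nor their equality was shown by this fit.

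Without any scaling between scans, the hypothalamus was still the brightest region. Its mean processed signal over the 20 copies was 119236, 112032 and 118746 intensity units on replicates 1, 2 and 3. The olfactory bulb gave 101621, 93641 and 95204. The cerebellum gave 92821, 86577 and 87106, and the hippocampus 88407, 82432 and 82746. The lowest hypothalamus scan thus lay above the highest scan of any other region, a separation that was not counted over the other probes. The hippocampus, next to the hypothalamus on the scaled values, was the lowest region here, below the olfactory bulb and the cerebellum. All 20 copies were well above background on each scan, none was saturated, and the mean signal reached 10.6% to 15.3% of the saturation value.

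**Figure D1:**
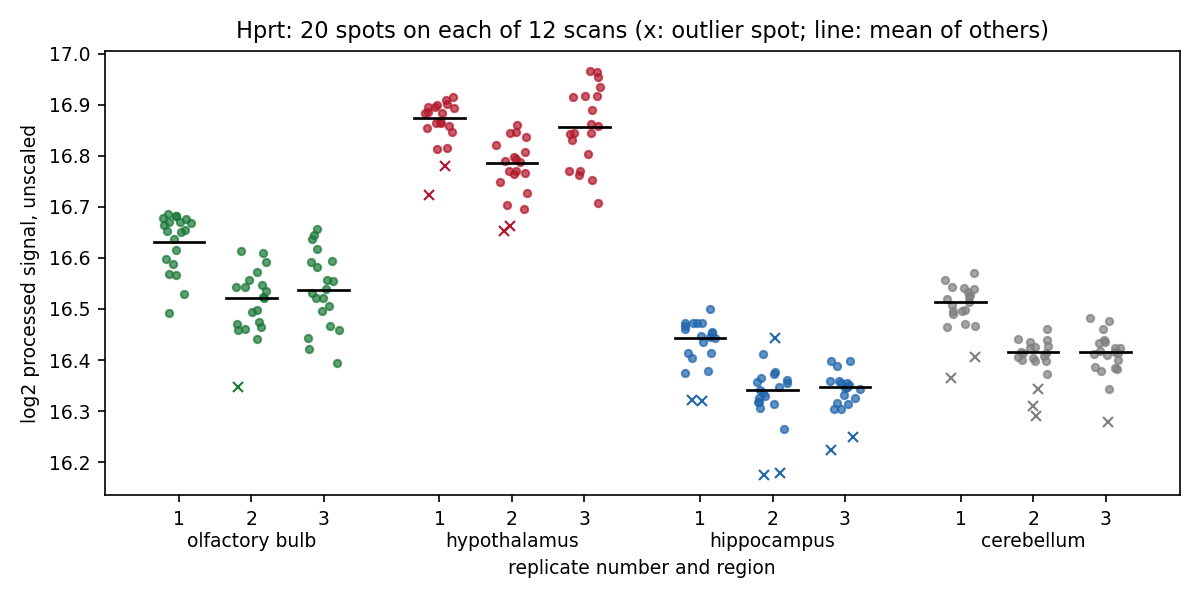
Log2 processed signal of the 20 Hprt spots on each of the 12 scans, before any scaling, by region and replicate number. Crosses are spots marked as outliers by the scanner software and lines are means of the other spots. The hypothalamus scans sit highest, and replicates 1 and 3 of hippocampus and cerebellum are near-identical scans apart from overall brightness.

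The copies allow the region difference to be read at matched places on the array. Copies within a scan varied by 2.92% to 5.29% of their mean (coefficient of variation), and 0 to 3 of the 20 were marked as outliers. On scan time 1, the unscaled hypothalamus signal exceeded that of the cerebellum at 20 of 20 positions, by 0.31 to 0.42 on the log2 scale. On scan time 2 it was again higher at 20 of 20 positions, by 0.31 to 0.43. Hippocampus against cerebellum gave the opposite sign to the scaled difference, with 0 of 20 positions higher in the hippocampus on scan times 1, 2 and 4. The copies share 1 labelled RNA per scan, so these counts describe the scan and are not replicates. The 10 upper and 10 lower copies of a scan differed in mean by -0.044 to 0.043, less than any of the differences from the hypothalamus.

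The scaling between arrays set the size of the Hprt difference. The hypothalamus scans were the dimmest as a whole, with 75th percentiles of 10.11 to 10.14 on the log2 scale against 10.19 to 10.30 in the hippocampus, 10.45 to 10.62 in the cerebellum and 10.54 to 10.66 in the olfactory bulb. The unscaled difference between hypothalamus and cerebellum was 0.40 for Hprt, while the median tested probe differed by -0.45. Relative to that median, Hprt was 0.84 higher in the hypothalamus without scaling and also with the 75th percentile, the array median or the named genes as the scale, since these shift all probes of an array alike. Quantile normalization, which treats bright and dim probes differently, gave 0.48 for this pair, 0.52 above the median probe. Normexp background correction gave 0.81. Against the olfactory bulb, the hypothalamus excess was 0.76 with the 75th percentile, 0.58 under quantile normalization and 0.27 unscaled, and against the hippocampus it was 0.61, 0.48 and 0.47. The hypothalamus excess over each region passed limma's test under each of these scalings.

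**Figure D2:**
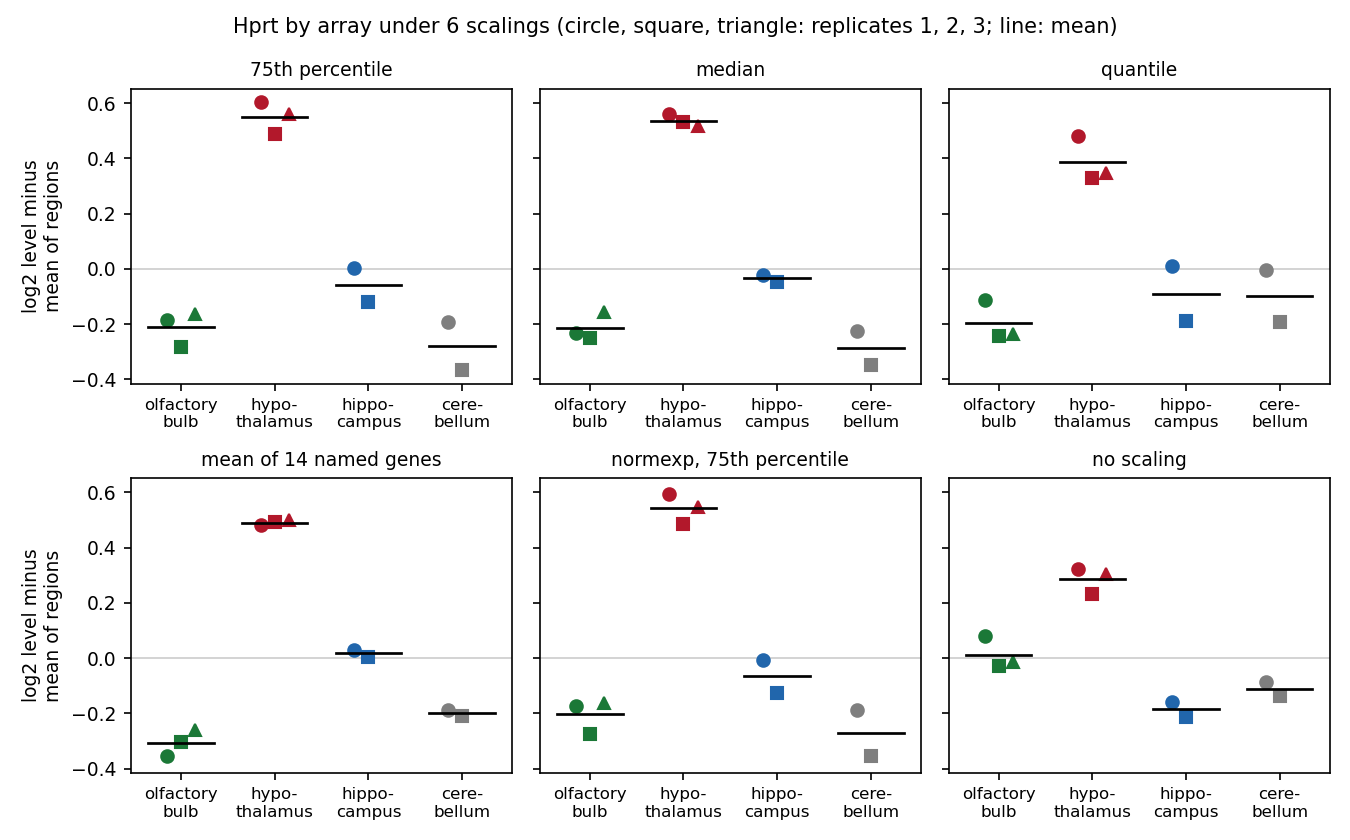
Hprt level of each of the 10 arrays under 6 scalings, as log2 level minus the mean of the 4 region means. Points are arrays, with near-identical scans averaged, and lines are region means. The hypothalamus is highest in every panel, whereas the order of the other 3 regions changes between panels.

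The other 3 regions changed order with the scale. The olfactory bulb minus the cerebellum was 0.067 with the 75th percentile, but -0.098 under quantile normalization and -0.11 against the mean of the other 14 named genes. None of these passed limma's test. The hippocampus stood above the cerebellum by 0.22 with the 75th percentile and by 0.0090 under quantile normalization, and unscaled the difference was -0.073.

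**Figure D3:**
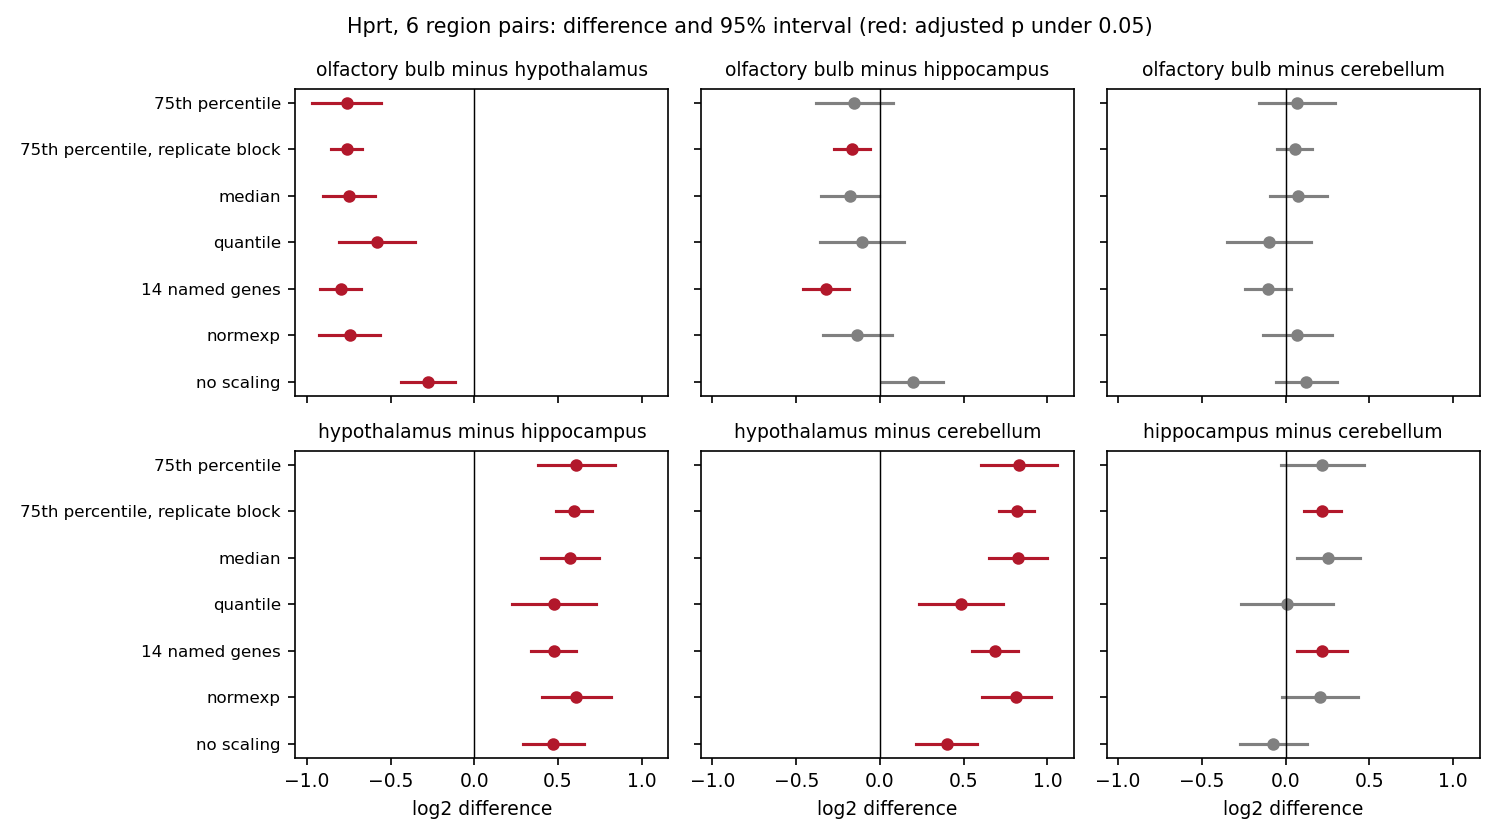
Difference in log2 Hprt level for the 6 region pairs, with 95% intervals from limma, under 6 scalings and with the replicate number as a block. Red marks an adjusted p under 0.05. The 3 pairs with the hypothalamus are red in every row, and the olfactory bulb against the cerebellum in none.

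On the upper-quartile scale, replicate 2 was the lowest array for Hprt in all 4 regions. Relative to the region mean it stood at -0.073 in the olfactory bulb, -0.061 in the hypothalamus, -0.062 in the hippocampus and -0.088 in the cerebellum. Replicate 2 was also lowest throughout unscaled, under quantile normalization and under normexp. With the other named genes as the scale, replicate 1 was lowest in the olfactory bulb (2.78 against 2.83 for replicate 2) and the hypothalamus (3.61 against 3.63). With the array median, replicate 3 was lowest in the hypothalamus (8.59 against 8.60). The hippocampus and the cerebellum hold 2 arrays each, whose deviations mirror each other. Arrays of replicate 2 also shared 1 scan time, and so did the scans of replicate 1. The averaged hippocampus and cerebellum arrays, however, also hold scans of scan time 4. They were given the scan time of their first scan, and only so labelled is a replicate block the same as a scan time block. In a fit with the replicate number as a block, limma's moderated residual SD for Hprt, which borrows from other probes, fell from 0.108 to 0.0438. With that block the hippocampus exceeded the olfactory bulb by 0.17 (olfactory bulb minus hippocampus -0.17, SE 0.042, limma adjusted p 0.0302), where 37.3% of probes passed. It exceeded the cerebellum by 0.22 (SE 0.044, limma adjusted p 0.0119), where 41.6% passed. Both calls were lost when the block was joined to quantile normalization, with -0.088 for olfactory bulb minus hippocampus (limma adjusted p 0.154) and 0.0090 for hippocampus minus cerebellum (limma adjusted p 0.900). For olfactory bulb minus cerebellum the difference remained short of the threshold at 0.053 (limma adjusted p 0.391), with 36.2% of probes passing. The F test with the block gave an adjusted p of 8.70e-05 in limma, and 54% of probes passed it.

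Differences within single scan times were first taken on the upper-quartile scale. The hypothalamus exceeded the olfactory bulb by 0.79, 0.77 and 0.72 on scan times 1, 2 and 3 (olfactory bulb minus hypothalamus -0.79, -0.77 and -0.72). It exceeded the cerebellum by 0.79 and 0.86 on scan times 1 and 2, and the hippocampus by 0.59 and 0.61. Each scan time that held the hypothalamus thus gave the same direction. The hippocampus exceeded the cerebellum by 0.19 on scan time 1, 0.25 on scan time 2 and 0.19 on scan time 4, whose scans were near-identical to those of scan time 1. Against the olfactory bulb it was higher on scan times 1 and 2 (olfactory bulb minus hippocampus -0.19 and -0.16). These differences depended on the scale. Unscaled, hippocampus minus cerebellum was -0.071, -0.076 and -0.070 on scan times 1, 2 and 4. Olfactory bulb minus hippocampus was then 0.19 and 0.18 on scan times 1 and 2. Under quantile normalization, hippocampus minus cerebellum was 0.0076, 0.0052 and 0.018, and olfactory bulb minus hippocampus was -0.12 and -0.054.

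Set against the other 14 genes with named probes, Hprt kept its hypothalamus excess in the ratio to 13 or 14 of them, depending on the region compared. These genes serve the cytoskeleton (Actb, Tuba1b), metabolism (Gapdh, G6pd2, Gk, Ldhal6b), lysosome (Gusb), cell surface (B2m, Tfrc), transcription and nuclear RNA (Tbp, Nono), and protein synthesis and folding (Rpl13a, Hsp90ab1, Ppia). A ratio within an array needs no scaling, and its change shows unequal change of the pair. The ratio of Hprt to the other gene exceeded its olfactory bulb value in the hypothalamus for 14 of 14 genes, with a median log2 difference of 0.63. It was higher than in the hippocampus for 13 of 14 (median 0.47), the exception being Gusb, a lysosomal enzyme (-0.038). It was higher than in the cerebellum for 13 of 14 (median 0.59), the exception being Actb, beta-actin (-0.086). A ratio falls only where the other probe rises more than Hprt does in the hypothalamus. At most 14.6% of tested probes did so against the olfactory bulb, 18% against the hippocampus and 17.9% against the cerebellum. Most tested probes would thus give the same direction, and the counts largely restate the difference of Hprt itself. No test was run over these counts, because the 14 ratios share the Hprt values.

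**Figure D4:**
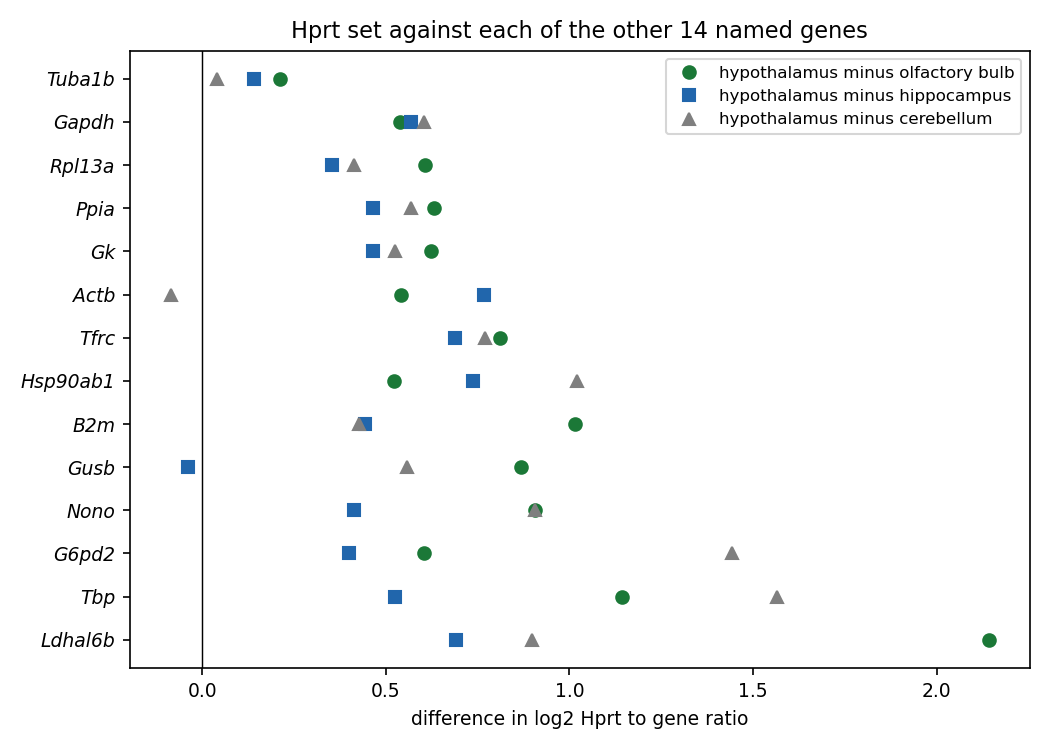
Difference between the hypothalamus and each other region in the log2 ratio of Hprt to each of 14 named genes, ordered by likeness to Hprt. Points right of 0 mean that Hprt gained on that gene in the hypothalamus. All points lie right of 0 except Gusb against the hippocampus and Actb against the cerebellum.

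With the mean of these 14 genes as the scale, Hprt was tighter within regions. The hypothalamus arrays stood at 3.61, 3.63 and 3.63 (log2 difference from the 14-gene mean) and the hippocampus arrays at 3.16 and 3.14. The cerebellum arrays stood at 2.95 and 2.92, and the olfactory bulb arrays at 2.78, 2.83 and 2.87. On this scale the arrays of the 4 regions did not overlap for any pair, but how many tested probes separate likewise was not counted. The hippocampus then passed limma's test against the olfactory bulb (olfactory bulb minus hippocampus -0.32, SE 0.059, adjusted p 0.00515), where 25.8% of probes passed. It also passed against the cerebellum (0.22, SE 0.064, adjusted p 0.0407 in limma), where 28.3% passed. Olfactory bulb minus cerebellum did not pass (-0.11, interval -0.25 to 0.029, limma adjusted p 0.237), in a pair where 16281 of the 56573 tested probes passed. The median tested probe itself shifted on this scale, by -0.15 for olfactory bulb minus hippocampus and by -0.032 for hippocampus minus cerebellum. For olfactory bulb minus cerebellum the median tested probe shifted by -0.19. Of the 14 genes that make up this scale, 7 themselves passed the F test over the regions on the upper-quartile scale. The scale is thus not made only of genes steady across the regions.

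The gene most like Hprt was Tuba1b, an alpha-tubulin. Likeness was measured as the SD, over the 10 arrays, of the log2 ratio of Hprt to the gene, which was 0.0936 for Tuba1b. It was 0.277 for Gapdh, the glycolytic enzyme, and 0.277 for Rpl13a, a protein of the large ribosomal subunit. Ldhal6b, of the lactate dehydrogenase family, was least like Hprt, at 0.920. The Ldhal6b probe was much dimmer, at -2.80 to -1.06 on the upper-quartile scale over the 10 arrays, against 5.79 to 6.76 for Hprt. The Hprt to Tuba1b ratio was not constant: it was higher in the hypothalamus by 0.21 than in the olfactory bulb, by 0.14 than in the hippocampus and by 0.040 than in the cerebellum. Tuba1b belongs to a family of near-identical genes, so which transcripts its probe reads is uncertain.

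**Figure D5:**
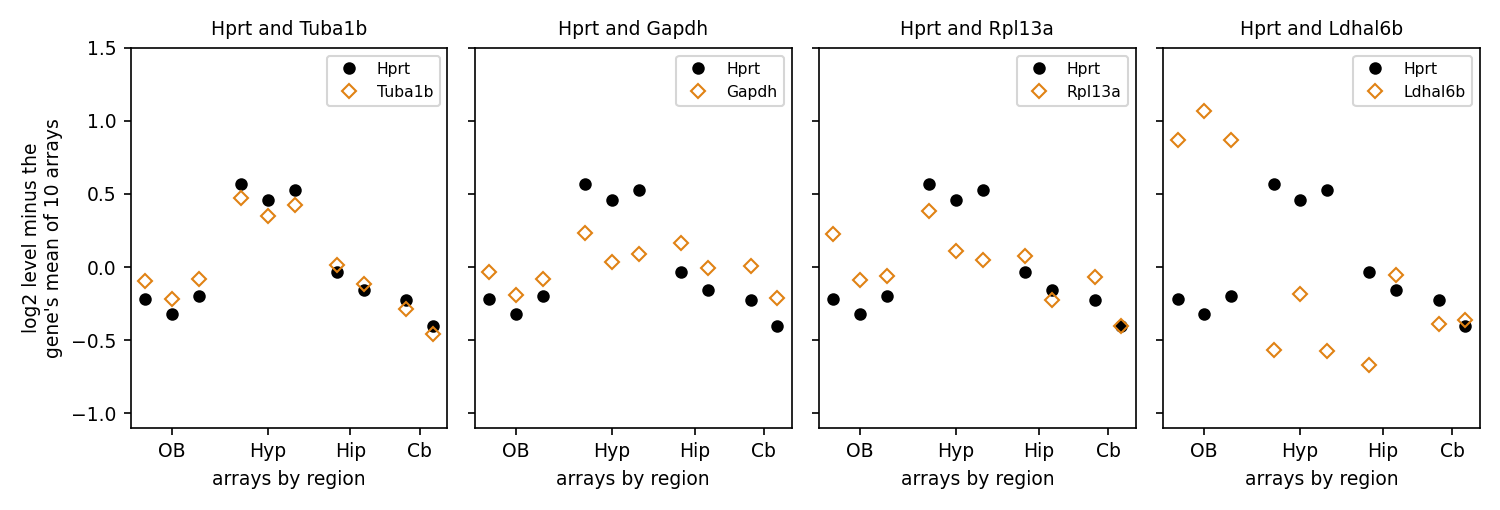
Log2 level minus the gene's own mean over 10 arrays, scaled to the 75th percentile, for Hprt (black) and for Tuba1b, Gapdh, Rpl13a and Ldhal6b (orange), in the olfactory bulb (OB), hypothalamus (Hyp), hippocampus (Hip) and cerebellum (Cb). Of the genes shown, Tuba1b runs closest to Hprt, though Hprt gains on it in the hypothalamus. Ldhal6b is highest in the olfactory bulb, where Hprt is low.

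Over all tested probes the median of this SD was 0.518, and 0.0831% of probes came closer to Hprt than Tuba1b did. The closest probe with an array-design ID was ASMM10P040757, with an SD of 0.0216. Its level was 6.44 in the hypothalamus, 5.81 in the hippocampus, 5.64 in the olfactory bulb and 5.61 in the cerebellum. The next were ASMM10P005735, at 0.0537, and ASMM10P051232, at 0.0579, both also highest in the hypothalamus, at 0.69 and 1.85. The files used here do not pair these 3 IDs with genes, and whether any of them is a further probe of Hprt itself was not tested. They were picked for likeness on these same arrays, so their agreement is a description.

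Whether Hprt counted as steady across the brain depended on the scale. Its SD over the 10 arrays was 0.370 with the 75th percentile, against 0.362 for the median tested probe, and 51.2% of tested probes varied less. Among the 15 named genes it ranked 13 from the steadiest. Under quantile normalization it ranked 10 of 15 (SD 0.270, with 32.7% of probes varying less), and under normexp 13 of 15. Unscaled it ranked 4 of 15 with an SD of 0.196, and 5.14% of probes varied less. Between the named genes, 8 of 15 passed the F test over the regions, Hprt among them, against 36.1% of all tested probes.

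Other genes of purine metabolism could not be set beside Hprt. Of 31 further genes of purine salvage, breakdown and synthesis, such as Aprt, Adk, Pnp and Xdh, 0 had a probe that the files name. The same held for 41 marker genes of the 4 regions and of brain and blood cell types, so the labelled regions were not checked against markers.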

How the data were processed

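Per the labels' protocols, RNA depleted of ribosomal RNA was amplified by random priming and labelled with Cy3. Per the submitters' processing notes, Agilent Feature Extraction 11.0.1.1 read the spots. The deposited intensity values are, per the file headers, processed signals with background subtracted and a spatial trend removed, and median spot and background signals. The deposited log2 value table held 0 of the 15 CUST-named probes and was not used. Its normalization step is not stated in the labels or headers.

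Outlier spots were left out, copies averaged on the log2 scale, the array's 75th percentile subtracted, and near-identical scans averaged. Probes well above background (in at least 0.5 of their copies) on all scans of a region were tested, 56573 in all. R 4.3.3 and limma 3.58.1 were used with 1 mean per region, 6 residual degrees of freedom and Benjamini-Hochberg adjustment over all tested probes; a call is an adjusted p under 0.05. The code was tested on simulated data. Labels do not say that arrays come from separate animals, so a p-value covers only the spread among these arrays, which may be technical.

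Scan times in the file headers were 4. Replicates 1 and 2 of all regions shared scan times 1 and 2, replicate 3 of olfactory bulb and hypothalamus had scan time 3, and that of hippocampus and cerebellum scan time 4. Arrays that share a number tended to deviate together from their regions. Their r was 0.0935 to 0.747 across probes, which are not independent, and over 0.1 in 12 of 13 pairs. Arrays with different numbers gave r of -0.73 to 0.38, so the ranges overlap. The 2 arrays of the hippocampus mirror each other around their mean, as do those of the cerebellum. The pairs are thus not separate observations. The labels do not say whether a number marks an animal, and the block is given as one for scan time. Scan time follows the same numbers only with each averaged array given the scan time of its first scan. The last number of the sample titles is fixed for each region; if it is a place on the slide, it cannot be told apart from the region.

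The probe was given by name, and the gene lists, tests and alternatives were chosen with earlier results of these data known. For likeness, the 3 named genes with the smallest SD of the ratio, the 1 with the largest and the 3 closest array-design probes were named. The probe's sequence is not given here, so what else it may bind was not tested.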

Additional observations from a re-analysis of the deposited data

How the results depend on the processing

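The hypothalamus kept its excess over each other region, with an adjusted p under 0.05, in each of 28 alternatives run per pair, and the F test in each of 27. The excess over the cerebellum ranged from 0.40 to 0.92 (adjusted p at most 0.0122), that over the hippocampus from 0.46 to 0.67 (at most 0.0409). The olfactory bulb minus the hypothalamus ranged from -0.80 to -0.27 (at most 0.0124). The olfactory bulb minus the cerebellum, 0.067 as reported, turned to -0.098 under quantile normalization, -0.11 with the 14 named genes as scale, -0.079 and -0.12 when each of these was joined to the replicate block, and -0.021 without cerebellum replicate 2. The olfactory bulb minus the hippocampus turned to 0.20 unscaled. It passed the threshold at -0.32 with the 14 genes, -0.17 with the replicate block, -0.16 with the scan time as a random block and -0.34 with the 14 genes and the replicate block. The hippocampus minus the cerebellum turned to -0.073 unscaled and passed at 0.22 with the 14 genes, the replicate block, both together, and the random block. With the replicate block and quantile normalization neither passed, at -0.088 (adjusted p 0.154) and 0.0090 (adjusted p 0.900). The cause was not tested. Leaving out 1 array at a time gave a largest region difference of 0.76 to 0.92, and for the pairs 0.74 to 0.92 (hypothalamus minus cerebellum), 0.55 to 0.67 (hypothalamus minus hippocampus), -0.79 to -0.73 (olfactory bulb minus hypothalamus), -0.21 to -0.091 (olfactory bulb minus hippocampus), -0.021 to 0.15 (olfactory bulb minus cerebellum) and 0.13 to 0.31 (hippocampus minus cerebellum); where this left 1 array in a region, it is assumed to vary like the others. The number of probes called between the 4 regions was 20407 as reported and 30539 with the replicate block. The fits with the second scan of each near-identical pair, and with the block joined to another scale, were chosen after the data were seen. The authors' value table could not be run, as it has no Hprt probe.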
